A study of Mus musculus with 3 samples.

Results

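The genes described here belong to 3 groups named for enzymes that write or erase marks on histones. They are the histone deacetylases with the sirtuins, the lysine methyltransferases, and the lysine demethylases. They were chosen by symbol alone, as every gene named Hdac, Sirt, Kdm, Kmt, Ezh1 or Ezh2, Setd, Ehmt, Suv39h1 or Suv39h2 with the usual number and letter, and the rule uses no expression value. The rule found 53 of the 47593 gene rows, made up of 11 histone deacetylases, 7 sirtuins, 20 methyltransferases and 15 demethylases. Some of the 53 are known chiefly for other roles, which are named below. The annotation used here lists Setd8 as Kmt5a, and the H4K20 methyltransferases Suv420h1 and Suv420h2 carry older names in the files and so lie outside the rule.

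RNA was sequenced in 3 libraries, replicates 1 to 3 of 1 group: wild-type (WT) mouse primary neurons of the hippocampus, 24 h after they were given fresh medium with B27 supplement and penicillin-streptomycin. Growth was in Neurobasal medium, to which 10% B27 and 1% GlutaMAX had been added, at 37 °C under 5% CO2. The study set these cells against neurons given apoE particles, which were not analysed here, so the comparisons below are between genes within a library and between the 3 libraries. Whether the replicates are separate cultures or animals is not in the labels, so p-values here measure only a spread that may be technical.

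Histone tails carry acetyl groups on lysines where chromatin is open, and deacetylases remove them, either with a zinc ion (the Hdac classes) or with NAD+ (the sirtuins). Methyl groups on lysines have different readings by position: H3K4 methylation marks promoters and enhancers, H3K36 methylation marks transcribed gene bodies, and H3K9 and H3K27 methylation mark silenced chromatin. In neurons several of these enzymes are known from memory formation and from inherited intellectual disability, among them Hdac2, Ehmt1, Kmt2d, Kdm5c and Kdm6a. In bulk RNA a lower level can come from fewer cells of a type or from less RNA per cell, and these cannot be told apart.

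The deposited values are log2 expression values in the form of a regularized log, which draws the 3 libraries of a gene together, so the reads behind them were worked back from the values and are called recovered reads here. All 53 genes were detected, at 1 CPM (count per 1000000 reads) or more in every library, where 29.4% of all gene rows and 59% of protein-coding genes reached that level. Their recovered reads summed to 3615 ± 20.7 CPM (SD, n = 3), which was 0.361%, 0.359% and 0.364% of the reads of replicates 1, 2 and 3. The libraries held 18780572, 18683966 and 18885652 recovered reads, so that a gene with no read in a library lay below about 0.16 CPM, the value of 3 reads. This limit takes in counting error alone, as reads without molecular identifiers can be copies of 1 molecule.

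The lowest of the 53, Setd4, had 5.49 ± 0.57 CPM and the highest, Hdac2, had 261 ± 0.522 CPM. Their median of 58.3 CPM stood beside 32.1 CPM over 12786 detected protein-coding genes with a length, and 37 of the 53 lay above that value. Longer transcripts give more reads, and 44 of the 53 genes were longer in annotated exon bases than the median detected gene, at a median of 6.68 kb beside 4.70 kb. Per kilobase of exon the medians were 6.21 CPM for the 53 genes and 6.65 CPM for detected protein-coding genes, with 26 of the 53 above. Per kilobase of the longest coding transcript they were 11 and 9.67 CPM, with 28 above. Levels of different genes are set beside each other only per kilobase of exon below, unless a sentence says otherwise.

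**Figure D1:**
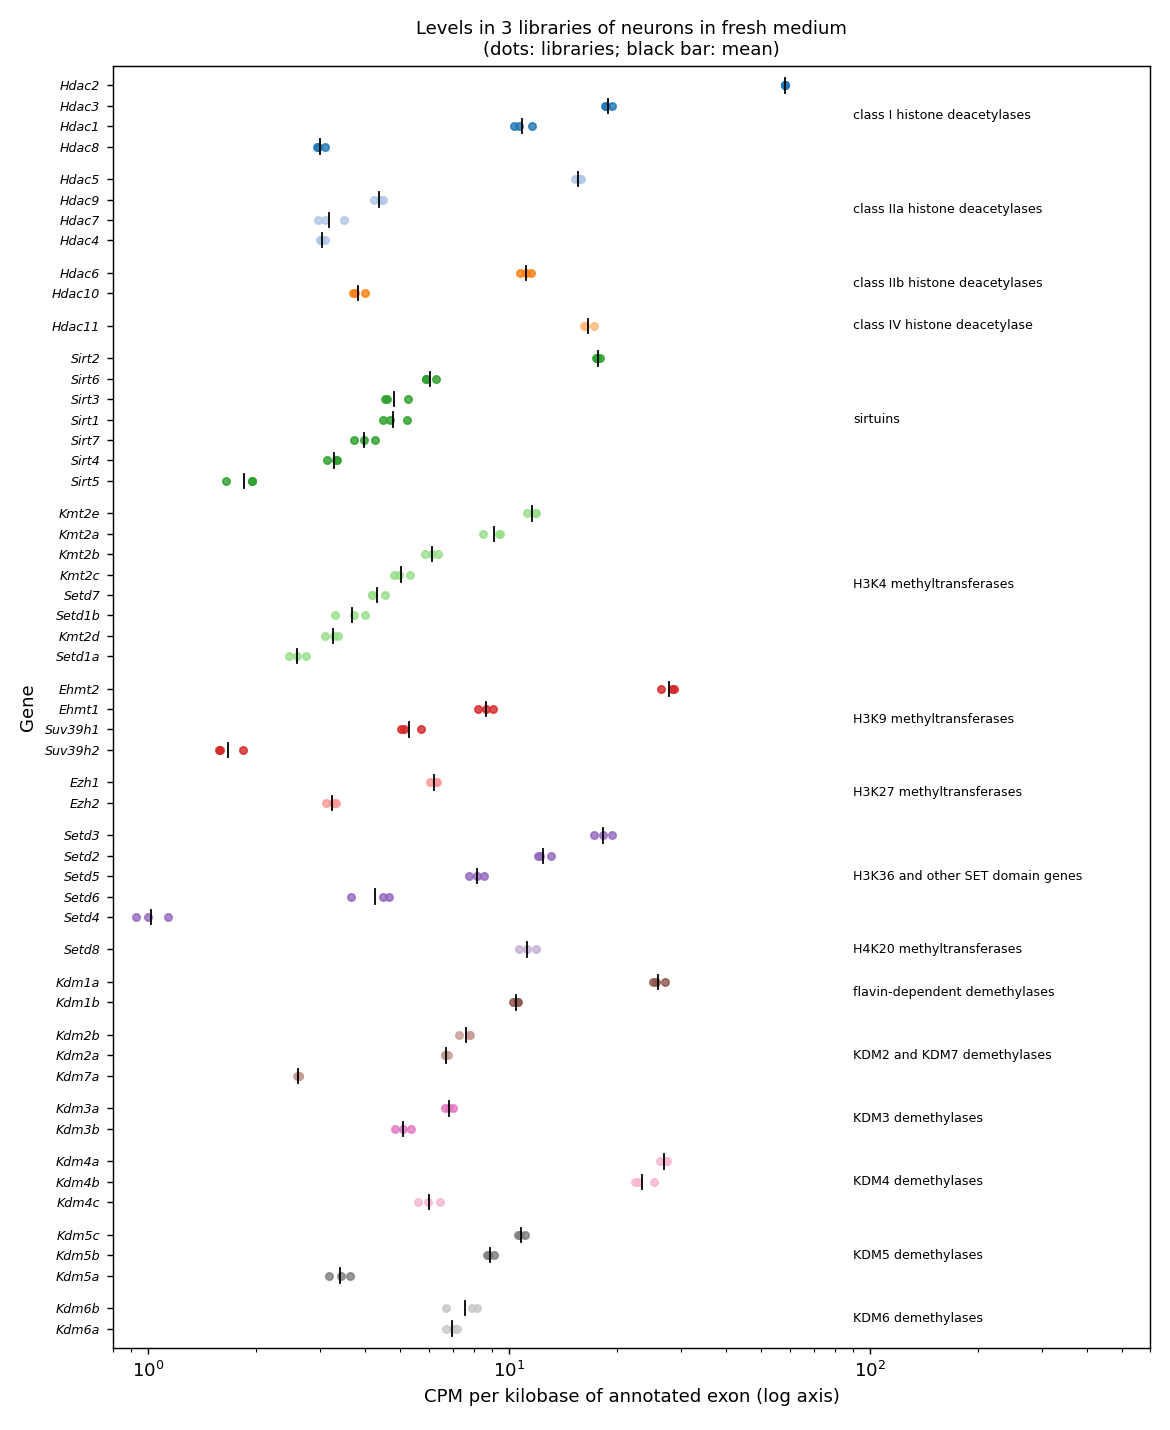
Level of each of the 53 genes in CPM per kilobase of annotated exon on a log axis, with 1 dot per library, a black bar at the mean and the genes grouped by enzyme family. Hdac2 stands at 58.3 and Setd4 at 1.02, and the 3 dots of a gene lie close together beside the distances between genes.

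Sequences before the listed starts of a few of these genes are shown. The genes span the range of levels per kilobase of exon and include the 2 H3K27 methyltransferases. Hdac2 is the highest gene, Suv39h2 the lowest but 1, and Ezh2 and Ezh1 are paralogs of unequal level. The sequences are from RefSeq on GRCm38.p6, lie within the 250 bases before the listed start of transcription, and leave out bases inside exons annotated by GENCODE M21. Capitals mark CG dinucleotides, the sites of DNA methylation in mammals. Hdac2 is shown at chr10:36974294-36974543 on the plus strand. Suv39h2 is shown at chr2:3475032-3475236, Ezh2 at chr6:47595059-47595183 and Ezh1 at chr11:101226464-101226713, these 3 on the minus strand. The listed start of Ezh2 lies 311 bases inside the M21 gene, so its stretch lies within that gene. Each reads 5′ to 3′:
Hdac2: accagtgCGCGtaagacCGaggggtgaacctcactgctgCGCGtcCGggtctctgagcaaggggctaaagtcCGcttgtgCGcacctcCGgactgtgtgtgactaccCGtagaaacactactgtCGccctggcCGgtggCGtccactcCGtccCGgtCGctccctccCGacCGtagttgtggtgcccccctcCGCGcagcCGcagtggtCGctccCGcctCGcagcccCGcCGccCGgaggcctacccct
Suv39h2: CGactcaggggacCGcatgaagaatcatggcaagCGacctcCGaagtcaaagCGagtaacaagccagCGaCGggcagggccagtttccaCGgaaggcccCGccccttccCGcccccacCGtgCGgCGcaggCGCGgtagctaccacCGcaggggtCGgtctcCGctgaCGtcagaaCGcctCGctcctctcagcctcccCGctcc
Ezh2: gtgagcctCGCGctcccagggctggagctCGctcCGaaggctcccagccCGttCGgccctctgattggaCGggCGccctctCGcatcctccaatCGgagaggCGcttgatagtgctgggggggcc
Ezh1: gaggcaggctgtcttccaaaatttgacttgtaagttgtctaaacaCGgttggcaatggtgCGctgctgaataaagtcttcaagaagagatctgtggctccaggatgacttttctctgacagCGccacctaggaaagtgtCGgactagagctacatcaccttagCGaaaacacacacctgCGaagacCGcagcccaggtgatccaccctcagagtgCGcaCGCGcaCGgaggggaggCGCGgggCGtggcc

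Over the whole 250 bases before their listed starts, Hdac2 and Suv39h2 both had 27 CG dinucleotides, although their levels stood at the opposite ends of the range. Ezh2 had 23 and Ezh1 had 14, but the Ezh2 window lies inside its M21 gene and the Ezh1 window outside. RefSeq promoters matched 42 of the 53 genes, and their median count was 17.5. It was 16 for 9948 detected protein-coding genes and 2 for 6470 protein-coding genes that were not detected. For these promoter sets, detection was judged in recovered reads. At least 10 CG dinucleotides stood in 38 of the 42 (90.5%), beside 77.0% of detected and 14.3% of undetected protein-coding genes. Among the 42, the 21 with counts at or above the median had a median level of 4.80 CPM per kilobase, and the 21 below it had 6.95. Kdm7a had the most, 56, and Setd5, Kdm4c and Hdac9 had 0 at the first start listed, which for Setd5 lies 27570 bases inside the M21 gene. The listed start lay within 1000 bases of the M21 gene start in 37 of the 42. Of short motifs, searched on both strands after the levels were known, CCAAT (the letters bound by NF-Y) stood in 16 of the 42 windows (38.1%), beside 36.6% of those of detected protein-coding genes. The Sp1 letters GGGCGG stood in 26 of the 42 (61.9%), beside 61.3%. CCAAT stands at base 90 of the Ezh2 stretch printed above and on the other strand at base 64, where the print reads ATTGG. The Ezh1 window has no match on either strand.

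**Figure D2:**
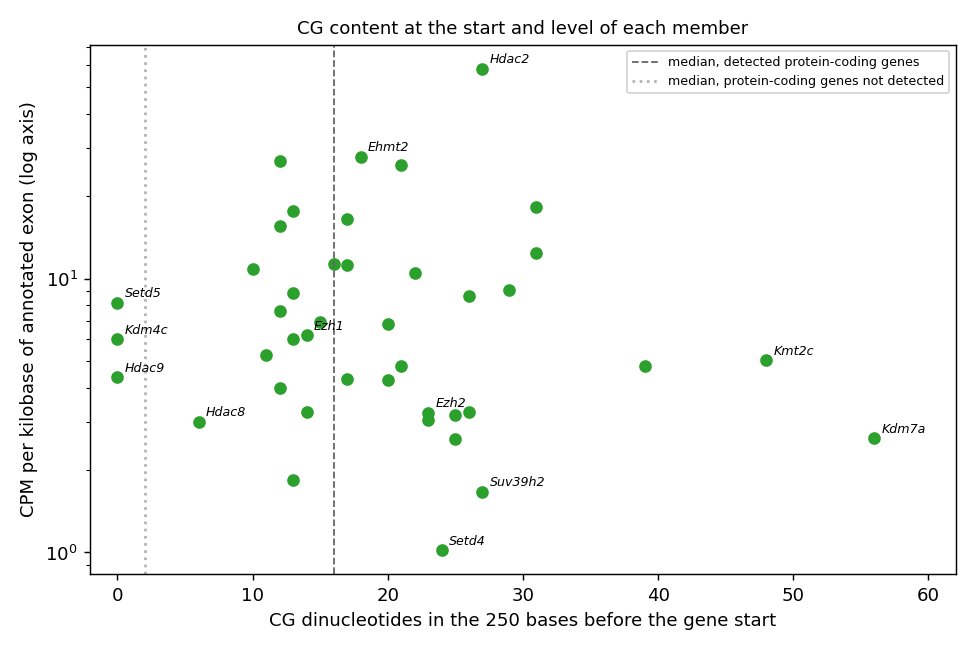
Level of each of the 42 matched genes in CPM per kilobase of exon (log axis) against the number of CG dinucleotides in the 250 bases before its RefSeq start, with vertical lines at the medians of detected (16) and undetected (2) protein-coding genes. Hdac2 and Suv39h2 share a count of 27 at levels of 58.3 and 1.67. Detection for the lines was judged in recovered reads.

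Class I histone deacetylases, most of which form the catalytic core of the Sin3, NuRD, CoREST or NCoR complexes in the nucleus, held the highest gene of all, Hdac2. Hdac1 (chr4:129516104-129542713) had 749, 665 and 693 reads in replicates 1, 2 and 3, and 10.9 ± 0.65 CPM per kilobase (SD, n = 3). Its close paralog Hdac2 (chr10:36974544-37001889) had 4891, 4877 and 4938 reads and 58.3 ± 0.12 CPM per kilobase. No other gene of the 53 overlapped the range of Hdac2. The log2 ratio of Hdac1 over Hdac2 was -2.37 with an SD of 0.022, or 0.083 in recovered reads, and Hdac2 was the higher in each library. A processed pseudogene, Gm10093, is 99.4% identical to Hdac1 over 1444 bases, or 70.9% of its transcript, and itself had 68 reads. Another, AC125456.1, is 96.3% identical over 1450 bases and has no reads listed. How reads that match several of them were counted is not given. The level of Hdac1 and its ratio to Hdac2 are therefore uncertain.

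Hdac3, the deacetylase of the NCoR and SMRT complexes, had 1417, 1461 and 1416 reads and 18.8 ± 0.43 CPM per kilobase. Hdac8, the X-linked enzyme that deacetylates cohesin, had 270, 280 and 269 reads and 3.0 ± 0.082 CPM per kilobase. The SD of a ratio is that of the deposited values unless recovered reads are named, and in 26 of the 27 pairs compared it was smaller than that of recovered reads. The log2 ratio of Hdac3 over Hdac8 was 2.46, with an SD of 0.0076, or 0.0020 in recovered reads. The 4 class I genes thus spanned the 1st to the 48th place of the order by level per kilobase. Per kilobase of coding transcript Hdac8 stood 36th.

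Class IIa deacetylases, which shuttle between nucleus and cytoplasm with neuronal activity, were led by Hdac5. Its reads were 2608, 2506 and 2592, at 15.6 ± 0.27 CPM per kilobase. Hdac4 had 922, 884 and 900 reads and 3.04 ± 0.06 CPM per kilobase, and the log2 ratio of Hdac5 over Hdac4 was 2.18, or 1.5 without length. Exons of another gene on the opposite strand cover 22.4% of the exon bases of Hdac4, and no source used here states whether the counting kept the strands apart. Hdac9 had 1163, 1228 and 1222 reads (4.37 ± 0.13 CPM per kilobase). Hdac7 had 392, 374 and 447 reads (3.19 ± 0.28 CPM per kilobase), and Hdac9 over Hdac7 gave a log2 ratio of 0.40, or 1.55 without length.

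The 3 other zinc-dependent enzymes lay between 3.82 and 16.6 CPM per kilobase. Hdac6, the cytoplasmic tubulin deacetylase, had 1175, 1217 and 1267 reads and 11.2 ± 0.39 CPM per kilobase. Hdac10, a polyamine deacetylase, had 254, 237 and 237 reads and 3.82 ± 0.16 CPM per kilobase, and Hdac6 over Hdac10 was 1.43 on the log2 scale, or 2.29 without length. Hdac11, the sole class IV enzyme and a remover of long fatty acyl groups, had 1244, 1162 and 1184 reads and 16.6 ± 0.57 CPM per kilobase. Over Hdac8, its log2 ratio was 2.28 with an SD of 0.017, or 1.61 per kilobase of coding transcript. Exons on the opposite strand cover 17.9% of those of Hdac11, so its value is uncertain. Averaged over its 4 members, class I exceeded class IIa by 1.37 on the log2 scale, but by 0.068 without division by length. The SD of the former over the libraries was 0.0085, or 0.043 in recovered reads.

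Among the sirtuins, Sirt2, a deacetylase of tubulin and histone H4 that is abundant in brain, was the highest. It had 1648, 1682 and 1673 reads and 17.6 ± 0.23 CPM per kilobase. Sirt1, the nuclear sirtuin, had 468, 519 and 452 reads and 4.79 ± 0.37 CPM per kilobase, so that Sirt2 over Sirt1 was 1.78 on the log2 scale, or 2.76 per kilobase of coding transcript. The mitochondrial Sirt3 and Sirt5 gave 590, 507 and 519 reads (4.80 ± 0.40 CPM per kilobase) and 222, 188 and 224 reads (1.85 ± 0.17), and Sirt3 over Sirt5 was 1.18, or 1.84 per kilobase of coding transcript. The transcript of Sirt5 shares stretches of at least 95% identity with 11 other genes, and exons on the opposite strand cover 12.7% of those of Sirt3, so both values are uncertain.

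Sirt6, a nuclear enzyme of DNA repair and telomeric chromatin, had 329, 307 and 311 reads and 6.03 ± 0.22 CPM per kilobase. Sirt7, the nucleolar sirtuin, had 383, 358 and 413 reads and 3.98 ± 0.26 CPM per kilobase. Their log2 ratio of 0.55 turned to -0.40 per kilobase of the longest coding transcript and to -0.28 without length, so no order of these 2 genes holds. Sirt4, a mitochondrial sirtuin, had 150, 141 and 151 reads and 3.27 ± 0.11 CPM per kilobase. The 11 Hdac genes summed to 801 CPM and the 7 sirtuins to 199 CPM. Per gene and per kilobase the Hdac mean was higher than the sirtuin mean by 0.77 on the log2 scale. Its SD was 0.0029, or 0.020 in recovered reads.

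H3K4 methyltransferases of the Kmt2 and Setd1 families work in COMPASS complexes, in which Kmt2a and Kmt2b act with menin at promoters, Kmt2c and Kmt2d at enhancers, and Setd1a and Setd1b carry out most promoter trimethylation. Kmt2e was highest per kilobase at 11.6 ± 0.35 CPM, with 2204, 2316 and 2327 reads. Its protein carries a SET domain but is known as a reader rather than a methyltransferase. Kmt2a had 2662, 2919 and 2984 reads (9.12 ± 0.54 CPM per kilobase). For Kmt2b the reads were 1056, 1102 and 1157 (6.13 ± 0.26 CPM per kilobase). Kmt2a exceeded Kmt2b by 0.54 on the log2 scale, or by 1.36 without length.

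The enhancer pair was lower per kilobase. Kmt2c had 1832, 2023 and 1903 reads (5.04 ± 0.27 CPM per kilobase) and Kmt2d had 1231, 1155 and 1265 (3.25 ± 0.13), a log2 ratio of 0.56 with an SD of 0.117 in recovered reads. Setd1a had 314, 329 and 352 reads (2.60 ± 0.14 CPM per kilobase), and Setd1b had 844, 745 and 911 (3.68 ± 0.35), at a log2 ratio of -0.43, or -1.30 without length. Of Setd1a's exon bases, 52.3% also belong to 2 other annotated genes, 1 of them on the same strand, and its value is therefore uncertain. Setd7, which adds a single methyl group to H3K4 and modifies many other proteins, had 923, 846 and 854 reads and 4.30 ± 0.21 CPM per kilobase.

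The 13 listed COMPASS partners, shared subunits and those of single complexes together, had a median of 16.4 CPM per kilobase, and 12 were detected. The chromatin tether Psip1 (60.4 CPM per kilobase) and the core subunit Dpy30 (42.0) were the highest, and Pagr1a had no read in any library. Overlap with other genes and copies were not examined for Pagr1a, so whether its reads were lost in counting was not tested. All 25 listed partners of the deacetylase complexes were detected too, led by the NuRD subunits Mta1 (47.5 CPM per kilobase) and Chd3 (40.7). The 12 listed acetyltransferases, which oppose the deacetylases, were all detected, led by Kat2a (29.7 CPM per kilobase) and Kat7 (23.3).

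Of the H3K9 methyltransferases, Ehmt1 (GLP) and Ehmt2 (G9a) form the dimer that places mono- and dimethyl marks. Ehmt1 had 1319, 1372 and 1258 reads and 8.64 ± 0.42 CPM per kilobase. Ehmt2 had 2960, 2706 and 2936 reads and 27.8 ± 1.2 CPM per kilobase, which put it next to Hdac2 in the order of the 53 genes, although its range overlapped that of the following gene, Kdm4a. Ehmt1 over Ehmt2 was -1.63 on the log2 scale, with an SD of 0.122 in recovered reads. Suv39h1, which places the trimethyl mark of pericentric heterochromatin, had 497, 504 and 567 reads and 5.28 ± 0.37 CPM per kilobase. Its paralog Suv39h2 had 152, 130 and 132 reads and 1.67 ± 0.15 CPM per kilobase, and the log2 ratio of Suv39h1 over Suv39h2 was 1.42, or 2.10 per kilobase of coding transcript. Exons on the opposite strand cover 14.6% of those of Suv39h1, so its value is uncertain.

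H3K27 methylation is placed by Polycomb repressive complex 2 (PRC2) with Ezh2, the form typical of dividing cells, or Ezh1, the form typical of cells that have left the cycle. Ezh2 (chr6:47530139-47595341) had 392, 415 and 411 reads and 3.24 ± 0.1 CPM per kilobase. Ezh1 (chr11:101191115-101226463) had 885, 839 and 881 reads and 6.21 ± 0.16 CPM per kilobase. Ezh2 was thus lower in each library, at a log2 ratio of -0.85 with an SD of 0.015, or 0.071 in recovered reads. Per kilobase of the longest coding transcript the ratio was -0.48, and without length -1.08.

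Other cells than postmitotic neurons were present beside these values. The 9 neuron markers summed to between 5275 and 5302 CPM in a library, the 8 neural progenitor markers to between 1083 and 1121 CPM, and the 12 markers of cycling cells to between 154 and 161 CPM. Most of the last came from Pcna, at 81.6 CPM, whereas Mki67 had 6.16 CPM and Aurkb lay under 1 CPM. In the progenitor sum the largest parts were Fabp7, at 622 CPM, and Vim, at 260 CPM. Eomes had 5.36 CPM and Hes5 had 3.74 CPM. The 7 astrocyte markers summed to between 1895 and 1921 CPM, the 7 markers of the oligodendrocyte lineage to between 286 and 303 CPM, and the 6 microglia markers to between 1.92 and 3.39 CPM, with none detected. The part of progenitors, astrocytes and cycling cells in the levels of Ezh2, Suv39h1 and the other genes was not tested. All 10 listed PRC2 partners were detected, with the histone chaperones Rbbp7 (53.4 CPM per kilobase) and Rbbp4 (16.6) highest and Phf19 lowest at 0.51.

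The 5 remaining SET domain genes ranged between 1.02 and 18.3 CPM per kilobase. Setd2, the sole writer of H3K36 trimethylation, had 2429, 2631 and 2474 reads and 12.4 ± 0.58 CPM per kilobase. Setd3, now known chiefly as the histidine methyltransferase of actin, had 2062, 2183 and 1969 reads and 18.3 ± 1 CPM per kilobase. Its transcript is 97.2% identical over 1797 bases to the pseudogene Gm14026, which had 32 reads. Another pseudogene, Gm7114, is 96.0% identical over 1788 bases and had 3 reads. How reads that match several of them were counted is not given, so the value of Setd3 is uncertain. Setd5, a chromatin regulator of neuronal development, had 2818, 2661 and 2964 reads and 8.17 ± 0.40 CPM per kilobase. Setd6, a methyltransferase of the NF-kB subunit RelA, had 166, 130 and 161 reads (4.26 ± 0.53 CPM per kilobase).

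Setd4 (chr16:93583457-93604063) had 101, 114 and 94 reads and, at 1.02 ± 0.11 CPM per kilobase, was the lowest of all. Its range did not overlap that of the next gene, Suv39h2. This last place depended on the length used, as Setd4 stood 50th per kilobase of coding transcript and Suv39h2 53rd. Setd8, the H4K20 monomethyltransferase of the cell cycle, had 1118, 1057 and 1194 reads and 11.3 ± 0.63 CPM per kilobase. The H4K20 enzymes outside the symbol rule, Suv420h1 (1601, 1544 and 1469 reads) and Suv420h2 (333, 301 and 371 reads), had a log2 ratio of 0.29 per kilobase of exon, 1.00 per kilobase of coding transcript and 2.17 without length. Other listed methyltransferases were detected for 20 of 22, the exceptions being Prdm9, the enzyme of meiotic recombination, and Mecom. Prmt1 (54.0 CPM per kilobase) and Prmt5 (41.6), both arginine methyltransferases, led that list.

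**Figure D3:**
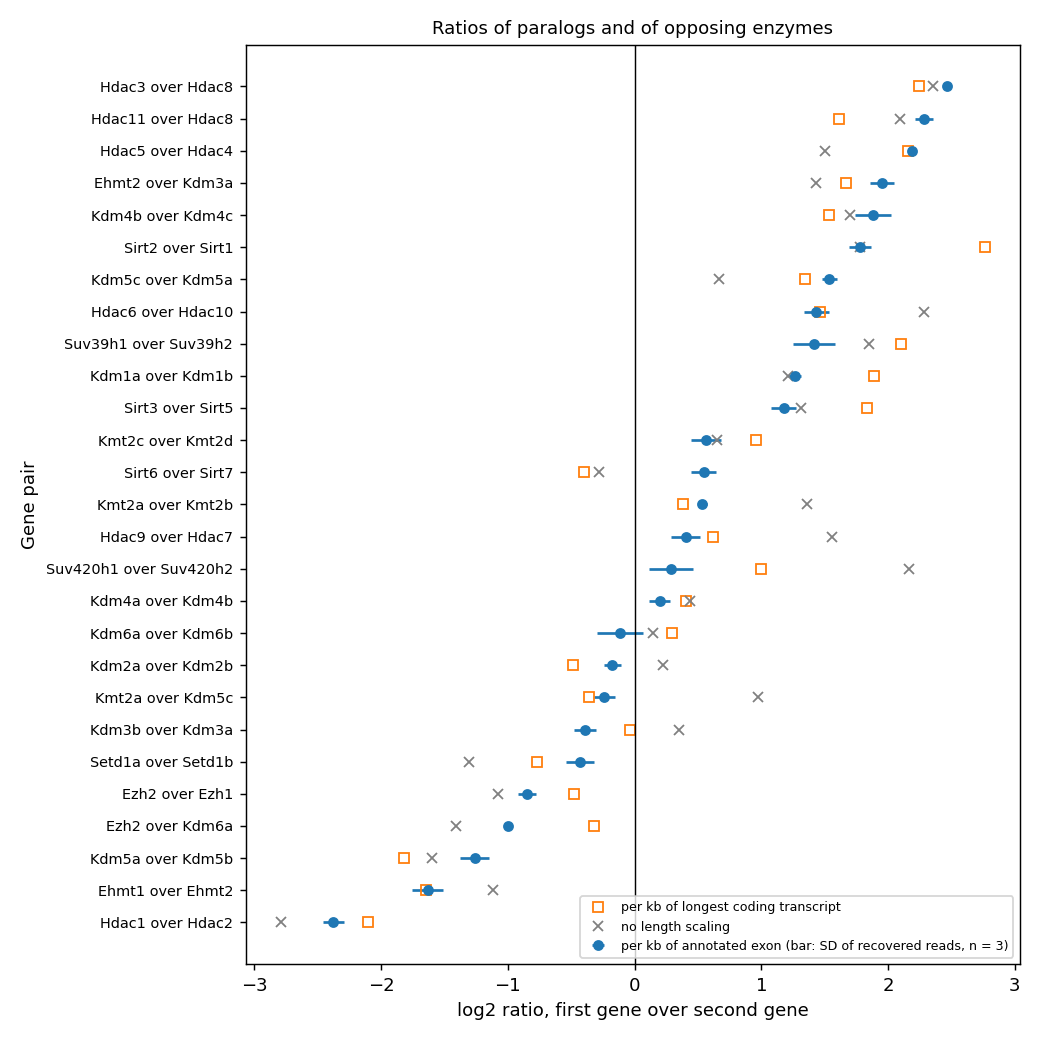
Log2 ratio of the first over the second gene of each of the 27 pairs per kilobase of exon, as the mean of 3 libraries with a bar for the SD of recovered reads, with marks for the ratio per kilobase of the longest coding transcript (squares) and without length (crosses). Hdac3 over Hdac8 lies highest at 2.46 and Hdac1 over Hdac2 lowest at -2.37, and Sirt6 over Sirt7 and Kdm6a over Kdm6b change sides with the length used.

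Methyltransferases were on average lower per kilobase than demethylases. The mean of the 20 methyltransferases differed from that of the 15 demethylases by -0.50 on the log2 scale. The SD of this difference over the libraries was 0.0074, or 0.018 in recovered reads. The 20 were grouped by symbol and so include Kmt2e and Setd3, whose other roles are given above. Of the flavin-dependent enzymes, Kdm1a (LSD1), the H3K4 demethylase of the CoREST complex with a neuron-specific splice form, had 2630, 2423 and 2499 reads and 25.9 ± 1 CPM per kilobase. Kdm1b (LSD2) had 1097, 1085 and 1067 reads and 10.5 ± 0.19 CPM per kilobase. Kdm1a over Kdm1b was 1.26 on the log2 scale, or 1.89 per kilobase of coding transcript.

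Among the Jumonji demethylases of the symbol rule, the Kdm4 family had the highest mean log2 level per kilobase, over Kdm4a, Kdm4b and Kdm4c. These enzymes remove methyl groups from H3K9 and H3K36. Kdm4d, which the symbol rule leaves out, had 0.62 CPM per kilobase. Kdm4a had 2954, 2836 and 2988 reads and 26.9 ± 0.60 CPM per kilobase. Kdm4b had 2316, 2050 and 2103 reads and 23.5 ± 1.5 CPM per kilobase, and the log2 ratio of Kdm4a over Kdm4b was only 0.20, with an SD of 0.079 in recovered reads. Kdm4c was lower, with 652, 702 and 617 reads and 6.01 ± 0.42 CPM per kilobase, at a log2 ratio of 1.88 for Kdm4b over Kdm4c.

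The Kdm5 enzymes erase H3K4 methylation. Kdm5c, the X-linked enzyme mutated in a form of intellectual disability, had 1434, 1478 and 1429 reads and 10.8 ± 0.26 CPM per kilobase. Kdm5a was the lowest of the 3, with 914, 958 and 847 reads and 3.41 ± 0.23 CPM per kilobase. Kdm5b had 2701, 2720 and 2850 reads and 8.87 ± 0.22 CPM per kilobase. The log2 ratio of Kdm5c over Kdm5a was 1.54, or 0.67 without length, and that of Kdm5a over Kdm5b was -1.26.

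Kdm6a and Kdm6b, the demethylases of H3K27 trimethylation, were close to each other. Kdm6a had 1053, 1125 and 1107 reads and 6.95 ± 0.25 CPM per kilobase. Kdm6b had 1033, 869 and 1073 reads and 7.59 ± 0.79 CPM per kilobase. Their log2 ratio of -0.12 was smaller than its SD of 0.182 in recovered reads, changed sides in 1 of the 3 libraries there, and was 0.29 per kilobase of coding transcript. Set against the demethylase Kdm6a, Ezh2 was lower per kilobase in each library, at a log2 ratio of -0.996 with 0.5 added to each level. Without that addition the ratio was -1.10. Per kilobase of coding transcript, with 0.5 added, it was -0.32.

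The Y-linked paralogs of Kdm5c and Kdm6a, Kdm5d and Uty, had no read in any of the 3 libraries, which allows a level of up to 0.0532 CPM over the group. The 5 X-linked genes were Hdac6, Hdac8, Kdm5c, Kdm6a and Suv39h1. The list of other demethylases held Kdm5d and Uty, and its remaining 9 of 11 genes were all detected, led by Phf2 (15.4 CPM per kilobase) and Jmjd6 (8.04).

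Kdm3a and Kdm3b erase H3K9 mono- and dimethylation. Kdm3b had 1345, 1272 and 1427 reads (5.09 ± 0.27 CPM per kilobase), and Kdm3a had 1030, 1075 and 1060 reads (6.83 ± 0.16). Kdm3b over Kdm3a was -0.39 on the log2 scale, but -0.04 per kilobase of coding transcript and 0.35 without length, and exons of another gene on the opposite strand cover 24.6% of Kdm3b. Kdm2a, an H3K36 demethylase that binds CpG islands, had 1805, 1829 and 1812 reads (6.69 ± 0.075 CPM per kilobase). Kdm2b, which brings a Polycomb repressive complex 1 to such islands, had 1587, 1482 and 1601 reads (7.62 ± 0.28), at a log2 ratio of -0.18 for Kdm2a over Kdm2b, which turned to 0.22 without length. A processed pseudogene, Gm12397, is 100% identical to Kdm2b over 615 bases and itself had 106 reads, so the value of Kdm2b is uncertain. Kdm7a had 497, 493 and 491 reads and 2.61 ± 0.025 CPM per kilobase, the lowest level among the demethylases of the symbol rule. Some in the list of other demethylases were lower.

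Set against erasers of the same mark, Ehmt2 exceeded Kdm3a by 1.95 on the log2 scale. Kmt2a was lower per kilobase than Kdm5c at -0.24, which turned to 0.97 without length. Of the 27 pairs, the first gene was the higher in all 3 libraries in 17 and the second in 10, in the deposited values. In recovered reads 26 pairs kept 1 sign in all 3 libraries, the exception being Kdm6a over Kdm6b. The exact two-sided sign-flip permutation test gave p = 0.25 for each pair, before and after Benjamini-Hochberg adjustment, which is the smallest p that 3 libraries allow. No pair can therefore be called by this test, and 22 kept their direction under every alternative setting.

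The order of the 53 genes was not sharp: 39 of its 52 neighbouring pairs overlapped in range over the libraries. Places also moved with the length used. Sirt3, for example, stood 34th per kilobase of exon and 14th per kilobase of coding transcript. The spread of a gene between libraries was small, with a median coefficient of variation of 4.27%, beside 4.26% for 10487 genes in the same range of reads. Against counting error alone, 8 of the 53 differed between libraries in a Pearson chi-square test on recovered reads with Benjamini-Hochberg adjustment over all 15131 genes tested. That is 15.1%, beside 8.62% of all genes tested and 8.72% of the genes in the same range of reads. Against a dispersion trend over all genes, which allows for the usual spread between libraries, none of the 53 and 0.317% of all genes differed. At an unadjusted p under 0.05, 17 of the 53 passed the test against counting error, beside 20.7% of all genes, and 3 passed that against the trend, beside 6.14%.

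Of these 8, Kmt2a had the smallest adjusted p against counting error, 0.000397, with replicate 1 the lowest at 142 CPM and replicates 2 and 3 at 156 and 158 CPM. Kdm6b followed, with 55.0, 46.5 and 56.8 CPM in replicates 1, 2 and 3 and an adjusted p of 0.000825. Kdm4b had its highest value in replicate 1, at 123 CPM beside 110 and 111 CPM (adjusted p = 0.00833). The lowest of Setd1b was replicate 2, at 39.9 CPM beside 44.9 and 48.2 CPM (adjusted p = 0.00990). The other 4, Setd5, Setd3, Kmt2c and Setd2, had adjusted p-values between 0.0175 and 0.0337. Kdm6b varied the most of the 8, by 1.22 times between its lowest and its highest library. Left-out libraries changed these calls. Without replicate 2 a single gene, Kmt2a, was left, which was 1.89% of the 53 beside 2.2% of all genes tested. Without replicate 1 there were 6 (11.3%, beside 7.83% of all genes), among them Ehmt2 and Kdm3b, which were not called with all 3 libraries. Without replicate 3 there were 6 (11.3%, beside 5.49%), among them Ehmt2. With total reads as the scaling Setd2 was no longer called and Ehmt2 was.

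**Figure D4:**
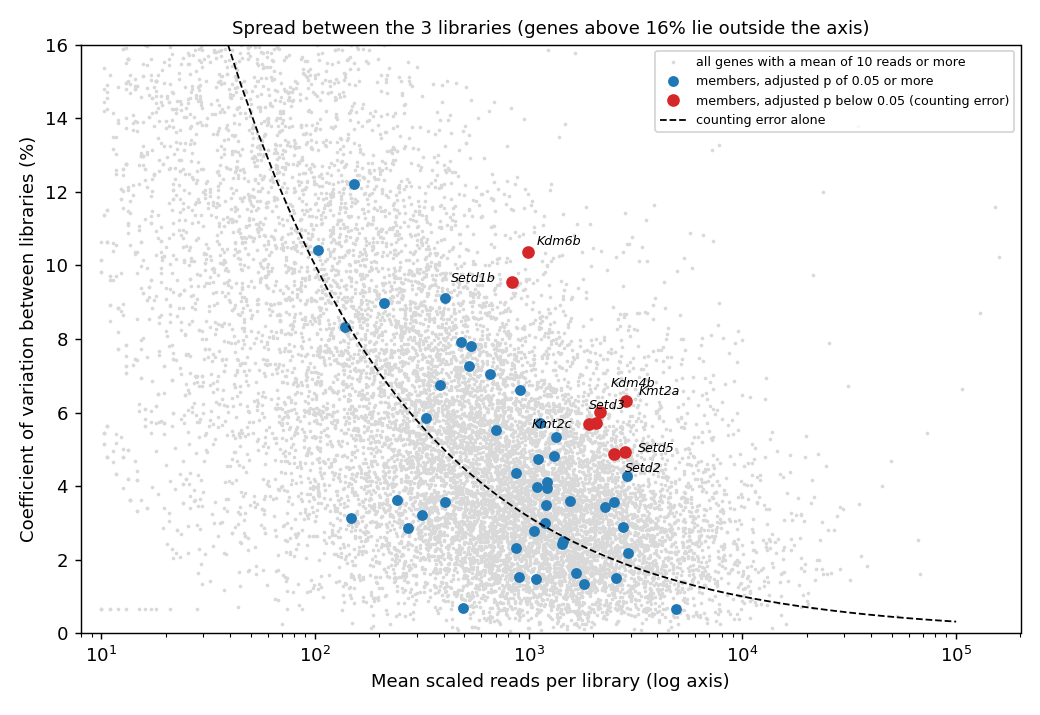
Coefficient of variation between the 3 libraries in percent against mean scaled reads per library (log axis), for every gene averaging at least 10 reads (grey), the 53 genes (blue) and the 8 of them past counting error (red), with a dashed line for counting error alone. The 8 lie above the line, with Kdm6b and Setd1b highest among them.

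Replicate 2 was compared with the mean of the other 2 libraries, after the calls were seen. Setd1b, Setd5, Kdm6b and Kdm4b were lower there, and Kmt2c, Kmt2a, Setd2 and Setd3 were higher, although Kmt2a and Kdm4b deviated most in replicate 1. GC content of the longest coding transcript moved with this division, at 49.7% to 59.6% in the first 4 genes and 44.3% to 50.6% in the second 4. At or above the median GC content of the 53 genes, 51.2%, 20 of 27 were lower in replicate 2 than in the others, with a median difference of -0.06 on the log2 scale, and below it 8 of 26, with a median of 0.05. Among 10099 other genes in the same range of reads, the same division gave 3217 of 4423 and 2160 of 5676. The correlation across genes of GC content with the deviation of replicate 2 was -0.48 over the 53 genes and -0.45 over the other genes. For replicate 1 it was 0.21 and 0.22, and for replicate 3 it was 0.39 and 0.28. These describe the libraries, and genes are not independent replicates. The part of GC content in these calls was not tested, and its values were computed once the calls were known.

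**Figure D5:**
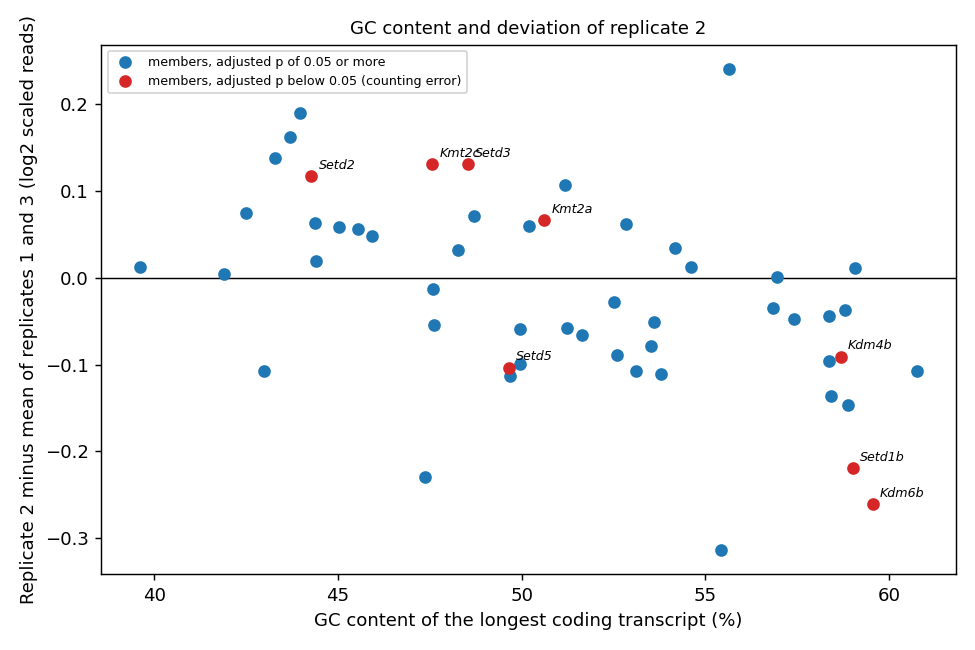
Difference on the log2 scale of replicate 2 from the mean of replicates 1 and 3 against the GC content of the longest coding transcript in percent, for the 53 genes, with the 8 called genes in red. Points lie lower at higher GC content, with a correlation across genes of -0.48.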

How the data were processed

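Per the submitters' processing notes, FastQC, HISAT2, featureCounts and DESeq2 were used on GRCm38; no version, setting or use of strand is given there. The files the authors deposited hold log2 values in the form of a regularized log, which pulls the libraries of a gene towards each other. Reads were recovered by inverting the ridge-penalised fit behind such values (6 parameters). Whole numbers, to within 0.1, resulted for 99.9% of 67797 values and for all 159 values of the 53 genes. Levels are CPM of recovered reads. Detection and gene pair ratios use the deposited values, with 0.5 added per kilobase for ratios. The promoter sets are the exception, as their detection uses recovered reads. Ratios are log2 differences within a library, tested two-sided by exact sign flips, a permutation test. Exon lengths, GC content and coordinates come from GENCODE M21, which 45905 names matched, 609 by an older symbol. The 27 date-like names were left unnamed. Exons of other genes overlapped those of 24 of the 53 genes, and the 6 with over 10% of exon bases covered are named above. Next came Suv39h2 (9.98%), Kmt2e (9.31%), Kdm1b (9.19%) and Kdm2b (8.74%), whose values are uncertain to that extent. The transcripts of 14 of the 53 genes shared at least 200 bases, at 95% identity or more, with other genes.

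Variation between libraries was tested on recovered reads, as planned should whole reads be recoverable, for 15131 genes averaging at least 10 reads, by a Pearson chi-square (2 degrees of freedom) with median-of-ratios size factors, checked on simulated data. The gene group (picked through a rule on symbols), lists and pairs were chosen with earlier results of these data known; values per library are given for genes of pairs, the highest and lowest of each family and called genes. From other lists, the highest 2 genes and those under detection may be named; further ones were chosen after their values were seen. Alternatives were other thresholds, pseudocounts, lengths, normalizations and left-out replicates. Python 3.11.15, NumPy 2.4.6, SciPy 1.17.1 and pandas 2.3.3 were used.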

Additional observations from a re-analysis of the deposited data

How the results depend on the processing

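Of 216 gene pair ratios under alternative settings, 209 kept their direction. Their size moved by over 1.5 times in 10 of 27 pairs without length, 8 by coding length and 6 with a pseudocount of 5. Without length scaling the log2 ratios turned to -0.28 for Sirt6 over Sirt7, 0.22 for Kdm2a over Kdm2b, 0.35 for Kdm3b over Kdm3a, 0.14 for Kdm6a over Kdm6b and 0.97 for Kmt2a over Kdm5c. Per kilobase of the longest coding transcript Sirt6 over Sirt7 turned to -0.40 and Kdm6a over Kdm6b to 0.29. The family differences kept their direction. Class I over class IIa was 0.068 without length, 1.43 by coding length and 1.80 by the median of members. Histone deacetylases over sirtuins were 1.22, 0.53 and 1.11 under the same settings, and methyltransferases over demethylases -0.58, -0.44 and -0.38. Left-out replicates gave 334 to 1187 genes past counting error and 7 to 28 past the dispersion trend, against 1304 and 48 with all 3 libraries. The lowest count past counting error, 334, was that without replicate 2, and the lowest past the trend, 7, that without replicate 1; the cause was not tested. No paired analysis was possible because there is 1 group. The effect of depth on these results was not tested. The SD of deposited values was below that of recovered reads in 26 of 27 pairs.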
